A study of Rattus norvegicus with 18 samples.

Results

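The genes described here are a list of 36 cell cycle and proliferation genes, measured by RNA-seq in the prefrontal cortex (PFC) of 18 Sprague Dawley rat pups at postnatal day 14 (P14). Rows were taken by gene symbol, and 35 of the 36 symbols, out of 32623 genes listed, had a row of their own. No row carried the symbol Ccnb2, and its expression was not analysed here. The genes shown in most detail are Mki67 (ENSRNOG00000028137), Top2a (ENSRNOG00000053047), Mcm2 (ENSRNOG00000016316), Mcm6 (ENSRNOG00000003703), Mcm7 (ENSRNOG00000001349) and Rrm2 (ENSRNOG00000054286). All 35 passed the filter on low counts and were among the 15703 genes tested.

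Each group held 6 pups. The dams of the saline (SAL) group received no drug. In the postnatal (PNO) group, dams were gavaged with 15 mg/kg/day of oxycodone (oxy), an opioid pain medication, from parturition until weaning, so that pups were exposed through milk. In the in utero (IUO) group, dams received 10 mg/kg/day for 5 days, then steps of 0.5 mg/kg/day for 10 days up to 15 mg/kg/day, and were mated and kept on the drug until weaning. IUO pups were therefore exposed both before and after birth. The labels give neither the litter nor the sex of a pup, so that p-values measure the spread between pups, some of which may share a dam.

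Cells that divide copy their DNA in S phase and separate the copies in mitosis. The MCM proteins form the helicase that opens DNA at replication origins, and E2F transcription factors switch on this S phase set. Cyclin B with Cdk1 then drives entry into mitosis, where kinesins, checkpoint kinases and the chromosomal passenger complex build and survey the spindle. In the postnatal rodent cortex most neurons no longer divide, and dividing cells are mainly glial progenitors, with immature neuroblasts supplied by the subventricular zone.

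Promoter sequences of 6 genes are shown first, as a feature that the choice of the list did not use and that differs between its MCM and its mitotic genes. RefSeq sequences of the GRCr8 build were available for 28 of the 36 genes, and the 250 bases before the annotated start were searched on both strands. Ccnb2 is among the 28, although its expression was not analysed. Ccna2, Aurkb, Tpx2, Mcm4, Rrm2, Ube2c, Ccne2 and E2f1 had no entry. The CHR element was searched as TTTGAA or TTTAAA, the CCAAT box as CCAAT, and the E2F site as TTTCCCG, as TTTCGCG, as TTTGCCG or as TTTGGCG. A CHR element was found in 16 of 18 mitotic promoters (88.9%), in 1 of 5 MCM promoters (20%) and in 25.4% of all 33469 promoters in the table. CHR and CCAAT stood together in 14 of 18 mitotic promoters (77.8%) and in 9.04% of all promoters. CCAAT, with or without CHR, was found in 14 of 18 mitotic and 4 of 5 MCM promoters, against 34% of all. An E2F site was found in 4 of 5 MCM promoters (80%), in 2 of 18 mitotic promoters (11.1%) and in 5.58% of all. The other S phase and G1 to S genes searched were mixed. Tyms and Hells had an E2F site, Pcna, Rrm1 and Ccne1 had none, and Ccne1 had a CHR element. Only the 150 bases next to the start are printed below, with the motif matches in capitals, for Top2a (chr10:84473094-84473243, minus strand), Cdk1 (chr20:19265143-19265292, plus strand), Mki67 (chr1:199952594-199952743, minus strand), Mcm6 (chr13:42404353-42404502, minus strand), Mcm7 (chr12:22163179-22163328, minus strand) and Mcm2 (chr4:122918095-122918244, minus strand). In Mki67 the CHR element nearest the start overlaps a CCAAT box, in Mcm7 an E2F site adjoins a CCAAT box, and in Mcm6 and Mcm2 the E2F letters overlap on both strands. These matches are letters in a window, and binding was not measured.
Top2a: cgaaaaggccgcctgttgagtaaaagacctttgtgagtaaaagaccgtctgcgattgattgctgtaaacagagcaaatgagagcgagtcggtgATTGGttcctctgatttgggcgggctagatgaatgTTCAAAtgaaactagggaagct
Cdk1: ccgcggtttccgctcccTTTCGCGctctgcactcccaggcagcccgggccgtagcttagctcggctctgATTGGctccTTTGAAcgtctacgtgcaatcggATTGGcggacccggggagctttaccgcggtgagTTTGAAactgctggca
Mki67: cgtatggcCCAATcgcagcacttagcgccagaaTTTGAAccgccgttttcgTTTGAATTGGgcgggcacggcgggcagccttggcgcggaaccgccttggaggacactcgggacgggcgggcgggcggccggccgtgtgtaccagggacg
Mcm6: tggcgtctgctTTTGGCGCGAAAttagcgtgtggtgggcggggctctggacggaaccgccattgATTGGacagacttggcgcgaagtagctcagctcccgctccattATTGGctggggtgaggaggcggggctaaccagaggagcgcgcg
Mcm7: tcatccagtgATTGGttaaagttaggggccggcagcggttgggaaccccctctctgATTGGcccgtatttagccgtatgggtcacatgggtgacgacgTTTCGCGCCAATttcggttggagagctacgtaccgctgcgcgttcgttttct
Mcm2: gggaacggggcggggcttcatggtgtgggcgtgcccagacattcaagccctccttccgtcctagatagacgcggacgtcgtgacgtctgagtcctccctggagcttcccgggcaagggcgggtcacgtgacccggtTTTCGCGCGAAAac

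All 35 genes were listed with counts in P14 PFC, at levels that differed widely between genes. Levels between genes are compared in TPM, the relative transcript abundance deposited by the authors, which corrects for gene length. Pcna, the clamp that holds DNA polymerase on its template, was highest with a median of 67.4 TPM over the 18 pups (59.0 to 83.5). E2f1, a transcription factor of the G1 to S transition, followed at 63.9 TPM (43.8 to 87.9), and the ranges of the 2 genes overlapped. Rrm1, the large subunit of ribonucleotide reductase, stood at 21.9 TPM and Ccne1, cyclin E1, at 14.4 TPM. The other 31 genes had medians of 12.02 TPM or less, 29 of the 35 were under 10 and 19 were under 5. Set among all genes tested, the middle gene of the list stood at the 28.5th percentile of TPM.

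Among the helicase subunits, Mcm7 (12.02 TPM), Mcm6 (11.3 TPM) and Mcm4 (9.37 TPM) had higher median levels than Mcm2 (5.21 TPM), Mcm5 (3.42 TPM) and Mcm3 (2.99 TPM). Rrm2, the small subunit of ribonucleotide reductase that is made mainly in S phase, had a median of 2.11 TPM, well under its partner Rrm1. The mitotic genes lay between 8.36 TPM for Cdk1 and 1.04 TPM for Bub1b, a spindle checkpoint kinase. Mki67, which encodes the proliferation marker Ki-67, had 2.88 TPM, and Top2a, the topoisomerase that untangles replicated chromosomes, 4.49 TPM. E2f1 and Rrm1 had separate ranges, and all other neighbours in the order of medians overlapped between pups.

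Hells, a chromatin remodeller of the SNF2 family, was the lowest gene, with a median of 0.205 TPM and a count of 0 in 7 of 18 pups. A count of 0 allows up to 3 counts. Its counts reached 33.6 in the highest pup and were not whole numbers in 10 pups, which means that reads were divided between it and another gene. Counts of Mcm4, Ccne2 and Rrm2 were not whole in 17 of 18 pups each, so the values of these 4 genes depend on how shared reads were assigned. In the RefSeq annotation 7 of the genes overlap another protein-coding gene (Aurka, Ccne2, Hells, Kif11, Nusap1, Plk1 and Rrm2), and the sources used here do not say whether the counting used strand.

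**Figure D1:**
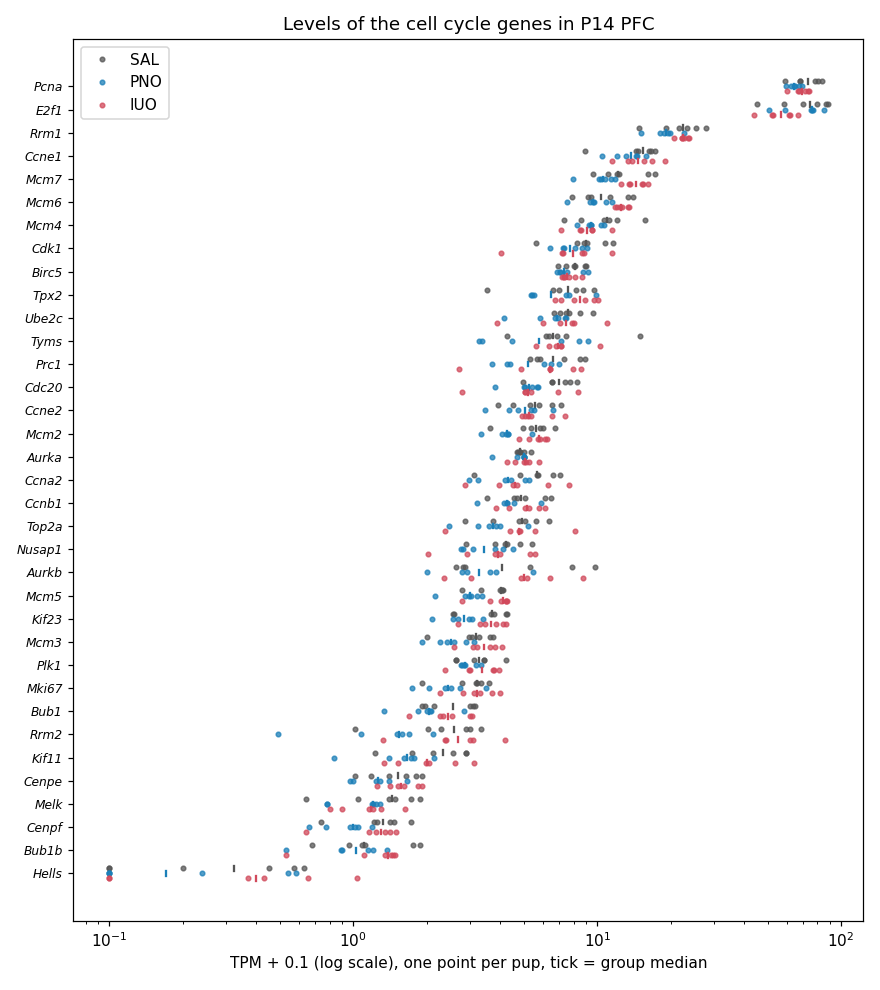
Level of each of the 35 genes in each pup (x axis, TPM plus 0.1 on a log scale; 1 point per pup, coloured by group, short vertical lines mark the group medians). Genes run from Pcna at 67.4 TPM (median of 18 pups) down to Hells at 0.205 TPM, and the Hells points at the left edge are pups with a count of 0.

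The spread between pups exceeded counting error for every gene of the list. Median counts ran from 6.69 for Hells to 1662 for E2f1. Pooled within the groups, the coefficient of variation (SD as a percentage of the mean CPM, where CPM is the count scaled to a common library size) had a median of 19.6% over the 35 genes, against 8.48% from counting alone. For 26 of 35 genes the measured value was over 2 times the counting value. E2f1 stood furthest apart, with 21.9% against 2.45%. Aurkb, the kinase of the chromosomal passenger complex, varied by 48.7% against 8.49% from counting. Birc5 (survivin, another member of that complex) varied by 14.4% against 10.7%, close to its counting error. Pcna and Rrm1 were the steadiest, at 8.83% and 8.82%.

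No gene of the list passed the test in any of the 3 comparisons. To be called, a gene needed a change of at least 1.5-fold and an adjusted p-value under 0.05 in edgeR's quasi-likelihood test. For PNO against SAL, 0 of 35 genes were called, beside 0% of all 15703 genes, and the smallest adjusted p-value was 0.912. For IUO against SAL, 0 of 35 were called, beside 0% of all genes (smallest adjusted p-value 0.608). For IUO against PNO, 0 of 35 were called, beside 0.0446% of all genes (smallest adjusted p-value 0.126). At an unadjusted p-value under 0.05 there were 3, 1 and 7 genes. At this number of pups the median standard error of a log2 fold change was 0.17, and the 95% interval lay inside 1.5-fold in both directions for 20, 25 and 15 genes in these comparisons, in the same order. For the remaining genes the interval reached beyond 1.5-fold on at least 1 side, so that a difference larger than that lies within the interval.

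**Figure D2:**
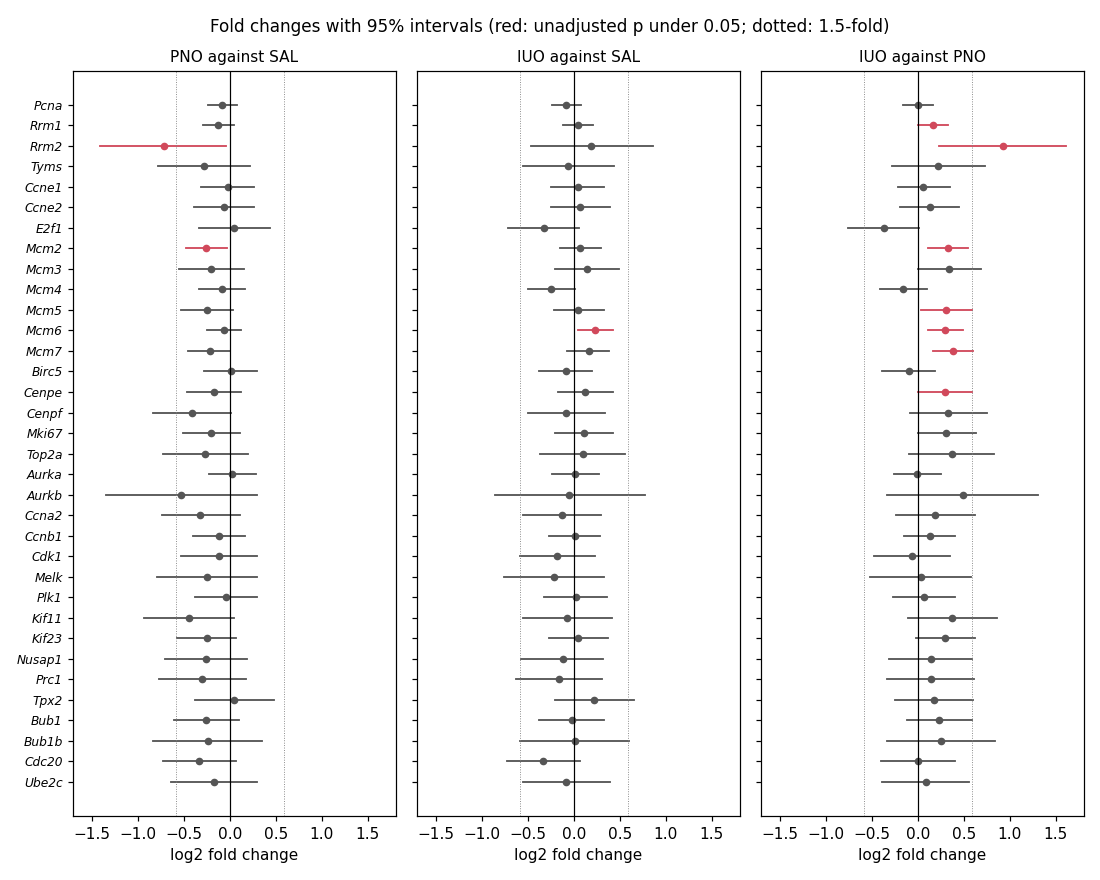
Log2 fold change (x axis, first group minus second) with its 95% interval for 34 of the 35 genes in the 3 comparisons, grouped by role, with red for an unadjusted p-value under 0.05 and dotted lines at 1.5-fold. Hells is left out because its intervals run beyond the axis. Estimates lie mostly left of 0 for PNO against SAL, around 0 for IUO against SAL and mostly right of 0 for IUO against PNO.

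Postnatal exposure alone was addressed by PNO against SAL. Estimates were lower in PNO for 31 of 35 genes (88.6%, against 49.2% of all genes tested), with a median log2 fold change of -0.22 against 0.00 over all genes. These genes varied together from pup to pup, so their 35 directions are not 35 separate observations. An unadjusted p-value under 0.05 was reached by 3 genes (8.57%), all lower in PNO, where 4.5% of all genes reached it. With the score of neuroblast and subventricular zone markers described further on as a covariate, 0 genes reached it, beside 3.39% of all genes. Then 28 estimates were lower and 7 higher, and the median was -0.09. Those markers were themselves lower in estimate in PNO for 9 of 10 (median -0.80). No gene had PNO and SAL pups that did not overlap, as 0.108% of all genes did.

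Mcm2, a helicase subunit, lay between 7.54 and 9.58 CPM in the PNO pups with a median of 9.02. SAL pups lay between 8.45 and 12.7 CPM with a median of 10.2. Of the PNO pups, 2 lay under the lowest SAL pup and the other 4 within the SAL range. Its log2 fold change was -0.26 (SE 0.11), with an unadjusted p-value of 0.0258 and an adjusted p-value of 0.912. Rrm2 had the largest estimate, at -0.72 (SE 0.33), from low counts of 5.89 to 52.8 per pup. Its CPM in PNO ran from 0.316 through a median of 0.968 to 1.52, and in SAL from 0.768 through 1.57 to 2.16. The adjusted p-value of Rrm2 was 0.912 (unadjusted 0.0403), and the groups overlapped.

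Mcm7 gave -0.22 (SE 0.11, unadjusted p-value 0.05, adjusted 0.912), with 13.8 to 20.1 CPM in PNO (median 15.9) and 17.0 to 23.2 CPM in SAL (median 18.0). Cenpf, a large protein of the kinetochore, ran from 4.11 to 6.55 CPM in PNO (median 5.65) and from 4.79 to 8.57 CPM in SAL (median 7.70). Its log2 fold change was -0.41 (SE 0.20, adjusted p-value 0.912). Both genes overlapped between the groups.

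The remaining estimates followed the roles unevenly. All 6 helicase genes were lower, from -0.26 to -0.06, as were all 5 genes of DNA synthesis and nucleotide supply and all 4 of the checkpoint and the anaphase-promoting complex. The G1 to S genes lay near 0, with Ccne1 at -0.02 (95% interval -0.31 to 0.26) and E2f1 at 0.05 (-0.33 to 0.44). Mki67 gave -0.20 (-0.51 to 0.11), Top2a -0.27 (-0.73 to 0.20), Cdk1 -0.12 (-0.53 to 0.30), Ccnb1 -0.12 (-0.40 to 0.16) and Pcna -0.08 (-0.24 to 0.08). In bulk tissue, fewer dividing cells and less RNA per dividing cell cannot be told apart.

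The representatives of the other roles overlapped between all 3 groups. Mki67 ran from 13.3 to 20.6 CPM in SAL (median 17.9), from 11.8 to 18.8 in PNO (median 15.3) and from 13.3 to 24.2 in IUO (median 18.8). Top2a ran from 11.5 to 20.8 CPM in SAL (median 16.3), from 9.54 to 15.8 in PNO (median 12.7) and from 7.86 to 27.9 in IUO (median 16.7), so that its widest spread was in IUO. Cdk1, the kinase that starts mitosis, ran from 4.61 to 7.95 CPM in SAL (median 6.03), from 5.11 to 6.44 in PNO (median 5.67) and from 2.74 to 8.21 in IUO (median 5.48). Ccnb1, the cyclin that activates it, ran from 3.97 to 5.86 CPM in SAL (median 4.61), from 3.48 to 5.00 in PNO (median 4.36) and from 3.58 to 5.30 in IUO (median 4.93). In both genes the PNO pups lay within or close to the SAL range. Pcna ran from 45.4 to 54.6 CPM in SAL (median 47.7), from 40.2 to 51.9 in PNO (median 47.1) and from 40.8 to 51.5 in IUO (median 47.6). Ccne1, whose product pairs with Cdk2 at the entry to S phase, ran from 12.5 to 19.4 CPM in SAL (median 17.1), from 13.2 to 21.1 in PNO (median 16.1) and from 13.8 to 22.2 in IUO (median 17.1).

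The count of 3 genes rested on single pups. It was 0 without SAL replicate 1, without SAL replicate 3, without PNO replicate 2 or without PNO replicate 5, 1 without SAL replicate 6 or PNO replicate 1, 5 without PNO replicate 3 and 6 without SAL replicate 4. The share of all genes at an unadjusted p-value under 0.05 ran from 2.52% without SAL replicate 6 to 8.99% without PNO replicate 1. It was 3.96% without PNO replicate 3 and 8.18% without SAL replicate 4. Lower estimates remained in the majority each time, in 29 to 34 of 35 genes.

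Exposure before and after birth was addressed by IUO against SAL. Estimates were divided, with 19 genes higher and 16 lower (45.7% lower, against 52% of all genes tested) and a median log2 fold change of 0.01. With the striatal marker score described further on as a covariate, 8 were higher and 27 lower, with a median of -0.10. Only Mcm6 (2.86% of the list) reached an unadjusted p-value under 0.05, which 6.88% of all genes did. Groups overlapped for all 35 genes, and did not overlap for 0.745% of all genes. Mcm6, another helicase subunit, ran from 21.3 to 24.7 CPM in IUO (median 21.5) and from 16.1 to 22.6 CPM in SAL (median 18.3). The IUO pups lay in the upper part of the SAL range, except for 1 pup above it. Its log2 fold change was 0.23 (SE 0.09, unadjusted p-value 0.0178, adjusted 0.608).

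Mcm4 was the one helicase gene with a lower estimate in IUO, at -0.25 (SE 0.12, adjusted p-value 0.748). Its CPM ran from 14.7 to 23.5 in IUO (median 17.4) and from 16.7 to 27.0 in SAL (median 21.9). E2f1 gave -0.32 (SE 0.18, adjusted p-value 0.818), and its SAL pups were widely spread, from 49.0 to 101.4 CPM (median 91.0), beside 53.2 to 76.2 CPM in IUO (median 63.6). Cdc20, an activator of the anaphase-promoting complex, gave -0.33 (SE 0.19, adjusted p-value 0.822). Its IUO pups ran from 2.78 to 8.10 CPM and its SAL pups from 5.96 to 8.25, with overlap. Mki67 gave 0.11 (95% interval -0.20 to 0.42), Top2a 0.10 (-0.37 to 0.56), Cdk1 -0.18 (-0.59 to 0.23), Ccnb1 0.01 (-0.27 to 0.28), Pcna -0.08 (-0.24 to 0.08) and Ccne1 0.04 (-0.25 to 0.33). The count of 1 gene became 3 without SAL replicate 1 or IUO replicate 1, and 2 without SAL replicate 4 or SAL replicate 6. The share of all genes at an unadjusted p-value under 0.05 was then 7.2%, 7.21%, 5.57% and 8.77%, in the same order.

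The third comparison, IUO against PNO, asked what exposure before birth added. It shares its pups with the comparisons against SAL and is not independent of them. Estimates were higher in IUO for 29 of 35 genes and lower for 6 (17.1% lower, against 50.1% of all genes tested), with a median log2 fold change of 0.19. An unadjusted p-value under 0.05 was reached by 7 genes (20%), all higher in IUO, and by 15.3% of all genes. With the neuroblast marker score as a covariate, 0 genes reached it, beside 9.85% of all genes. Then 26 estimates were higher and 9 lower, and the median was 0.08. Summed neuroblast markers did not overlap between IUO and PNO, so that score and the exposure cannot be fully told apart. With the striatal score 4 genes reached it, beside 17.3% of all genes, 21 were higher and 14 lower, and the median was again 0.08. Of the 7 genes reached without a score, 4 encode helicase subunits (Mcm7, Mcm6, Mcm2 and Mcm5) and 2 encode ribonucleotide reductase (Rrm2 and Rrm1). The seventh was Cenpe, a kinetochore motor.

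Mcm7 had the smallest adjusted p-value, 0.126, with a log2 fold change of 0.38 (SE 0.11). IUO pups ran from 18.7 to 25.04 CPM (median 21.0) beside the PNO pups at 13.8 to 20.1 (median 15.9), so that the ranges shared only the stretch from 18.7 to 20.1 CPM. Mcm6 was the single gene of the list whose groups did not overlap, which 1.66% of all genes showed. Every IUO pup had at least 21.3 CPM and every PNO pup at most 19.4 CPM (medians 21.5 and 18.4). The log2 fold change of Mcm6 was 0.30 (SE 0.09, adjusted p-value 0.140). Mcm2 gave 0.33 (SE 0.11, adjusted p-value 0.166), with 9.33 to 12.6 CPM in IUO (median 11.1). Rrm2 gave 0.92 (SE 0.33, adjusted p-value 0.200), with 0.848 to 2.84 CPM in IUO (median 1.76). For Mcm2 and Rrm2 the IUO and PNO pups overlapped.

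Mcm3 (0.34) and Mcm5 (0.31) had estimates of like size to these, while Mcm4 lay on the other side at -0.16 (95% interval -0.41 to 0.10). Mki67 gave 0.31 (0.00 to 0.63, unadjusted p-value 0.0503), Top2a 0.37 (-0.10 to 0.83) and Ccnb1 0.13 (-0.15 to 0.40). Cdk1 at -0.06 (-0.48 to 0.35), Pcna at 0.00 (-0.16 to 0.17) and Ccne1 at 0.06 (-0.22 to 0.35) lay near 0. By role, the median was 0.32 for the helicase genes, 0.31 for chromosomes and kinetochore, 0.22 for DNA synthesis and nucleotide supply, 0.18 for spindle and midbody, 0.16 for the checkpoint and the anaphase-promoting complex, 0.07 for the mitotic cyclins and kinases and 0.06 for the G1 to S genes. Differences between roles were not tested. The count of 7 genes was 12 without IUO replicate 3 and 4 without PNO replicate 2, PNO replicate 5, IUO replicate 2 or IUO replicate 4. The share of all genes at an unadjusted p-value under 0.05 was 12%, 12%, 18.1%, 14.6% and 12.7% without these pups, in the same order.

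**Figure D3:**
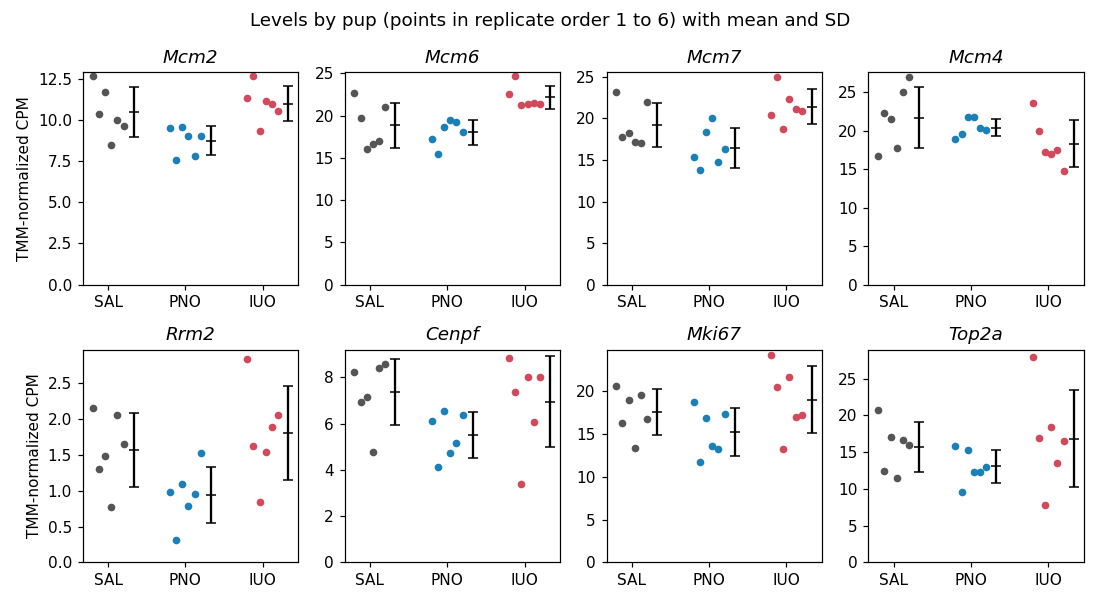
TMM-normalized CPM (y axis, from 0) of 4 helicase genes, Rrm2, Cenpf, Mki67 and Top2a in each pup, with black bars for the group mean and SD (n = 6). For Mcm6 the lowest IUO pup, at 21.3 CPM, lies above the highest PNO pup, at 19.4 CPM, while the groups of the other 7 genes overlap, and IUO replicate 3 is the lowest IUO pup for every gene plotted except Mcm4.

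A further list of 80 cell cycle genes outside the 36, of which 79 were found and tested, gave the same picture of no calls. Calls numbered 0 of 79 in each comparison. Estimates were lower in PNO than in SAL for 66 of 79 (median log2 fold change -0.13), higher in IUO than in SAL for 46 (median 0.03) and higher in IUO than in PNO for 65 (median 0.17). Unadjusted p-values under 0.05 were found for 7, 2 and 12 genes, or 8.86%, 2.53% and 15.2% of the list, beside 4.5%, 6.88% and 15.3% of all genes, so that the share for IUO against PNO was at the background. Pole, the catalytic subunit of DNA polymerase epsilon, led the last comparison at 8.34 ± 0.872 CPM in IUO and 5.90 ± 1.04 in PNO (SD, n = 6), a log2 fold change of 0.50 (edgeR adjusted p-value 0.137). It was the 1 gene of 79 whose groups did not overlap, beside 1.66% of all genes. Lmnb1, which encodes lamin B1, led PNO against SAL at -0.36 (adjusted p-value 0.912), and Wee1, the kinase that restrains Cdk1, led IUO against SAL at -0.20 (adjusted p-value 0.659).

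Pup by pup, most of these genes moved together. After each group's mean was removed from log2 CPM, Pearson's r over the 18 pups had a median of 0.38 over the 595 pairs of genes, against 0.00 over all pairs of genes tested (quartiles -0.30 and 0.30). The pairs share libraries, so that r is given as a description. Among the 21 mitotic genes the median was 0.60, and 187 of 210 pairs were above 0. Among the 6 helicase genes it was 0.45, with 15 of 15 pairs above 0, and between helicase and mitotic genes 0.43. The closest pairs were Nusap1 with Prc1 (0.92), both of which bundle spindle microtubules, and Cdk1 with Cdc20 (0.92). Plk1 with Pcna, Top2a with Cdk1 and Mki67 with Top2a followed at 0.90 each.

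Top2a had the highest median r with the mitotic genes, at 0.80, followed by Mki67 at 0.74 and Cdk1 and Cdc20 at 0.72. Helicase genes split within this measure, with Mcm5 (0.63), Mcm2 (0.61) and Mcm3 (0.60) near the mitotic genes and Mcm7 (0.38), Mcm6 (0.24) and Mcm4 (0.18) further off. Rrm2 reached 0.61 and Rrm1 0.55. A few genes of the list did not follow the rest. Birc5 (0.00), Hells (-0.01), Aurka (-0.10), Tyms (-0.11), Ccne1 (-0.12) and E2f1 (-0.15) had no positive median, and the lowest pair of all was Birc5 with Tyms, the thymidylate synthase gene, at -0.75.

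**Figure D4:**
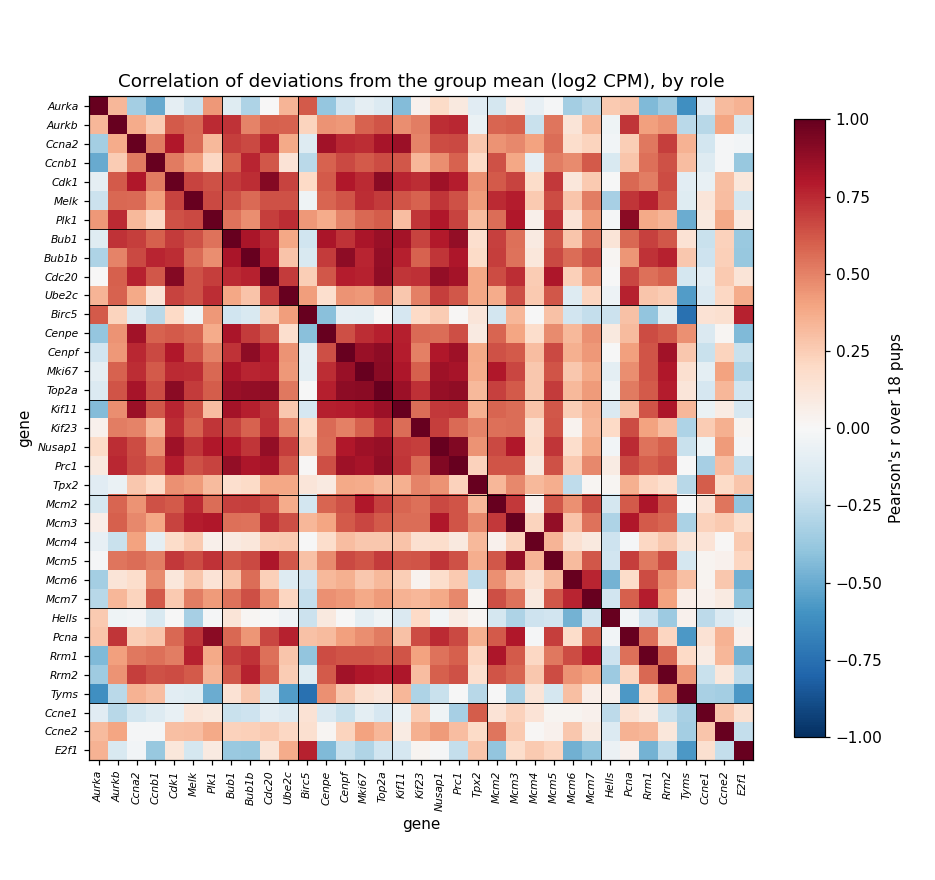
Pearson's r over 18 pups between each pair of the 35 genes (colour, from -1 in blue to 1 in red), computed on deviations of log2 CPM from the group mean, with black lines between roles. The mitotic genes and Mcm2, Mcm3 and Mcm5 form a red block, while Aurka, Birc5, Hells, Tyms, Ccne1 and E2f1 stand outside it.

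The pups at the ends of these ranges were often the same. IUO replicate 3 was the lowest pup of its group for 17 of the 21 mitotic genes, with a mean deviation of -0.64 on the log2 scale, and without it the median r of the mitotic genes was 0.48 in place of 0.60. Leaving out any other single pup gave 0.56 to 0.63. Removing the striatal marker score gave 0.48, and removing the neuroblast marker score gave 0.60. IUO replicate 1 was the highest for 15 of 21, with a mean deviation of 0.45. SAL replicate 4 and PNO replicate 2 were the lowest of their groups for 12 genes each, at -0.24 and -0.23. Summed over the 21 mitotic genes, levels ran from 68.5 to 111.3 TPM in SAL (median 95.6), from 64.7 to 89.1 TPM in PNO (median 76.9) and from 57.3 to 119.7 TPM in IUO (median 88.4), so that IUO spanned both other groups. The helicase genes summed to 32.6 to 59.6 TPM in SAL, 30.6 to 42.6 TPM in PNO and 42.5 to 52.4 TPM in IUO.

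Markers of other cell types and of tissue next to the PFC also differed between pups. All 5 markers of excitatory cortical neurons were found, at 758.7 to 1761 TPM summed over the pups. All 6 striatal markers were found as well, and their sum ran from 112.6 to 1257 TPM in SAL, from 120.5 to 853.8 in PNO and from 276.2 to 1397 in IUO. All 6 had lower estimates in PNO than in SAL (median log2 fold change -0.32, smallest adjusted p-value 0.922). All 6 were higher in estimate in IUO than in SAL (median 0.52, smallest adjusted p-value 0.93) and than in PNO (median 0.84, smallest adjusted p-value 0.47). The 10 markers of neuroblasts and the subventricular zone were all found, and summed to 56.8 to 352.4 TPM in SAL, 51.7 to 90.3 in PNO and 112.3 to 143.6 in IUO, with no overlap between IUO and PNO. Of these 10, 9 had lower estimates in PNO than in SAL (median log2 fold change -0.80) and 9 had higher estimates in IUO than in PNO (median 0.76), with 0 past an adjusted p-value of 0.05 and smallest adjusted p-values of 0.912 and 0.102. Myelin markers, 7 of 7 found, summed to 1386 to 5506 TPM in SAL, 2124 to 11080 in PNO and 1643 to 3794 in IUO. All 7 were lower in IUO than in PNO at an unadjusted p-value under 0.05 (median log2 fold change -1.39, smallest adjusted p-value 0.102) and all 7 had higher estimates in PNO than in SAL (median 0.75, smallest adjusted p-value 0.912). The 4 choroid plexus markers, at 0.69 to 2683 TPM summed over all pups, had a median log2 fold change of -1.32 for IUO against PNO (smallest adjusted p-value 0.489), and the 2 red blood cell markers found of 3, at 361.4 to 5668 TPM, one of 1.09 (smallest adjusted p-value 0.193). The 6 markers of oligodendrocyte precursors, which divide at this age, ran from 207.8 to 394.2 TPM over all pups. Their median log2 fold change was 0.10 for PNO against SAL, with 6 of 6 higher (smallest adjusted p-value 0.912). It was -0.20 for IUO against PNO, with 5 lower and 1 higher, 2 of the lower ones at an unadjusted p-value under 0.05 (smallest adjusted p-value 0.271). With the neuroblast score as a covariate, chosen after seeing the data, the median log2 fold change of the 35 genes lay closer to 0 for PNO against SAL and for IUO against PNO, with the values given beside those comparisons. With the striatal score, likewise added after seeing the data, it was -0.19 for PNO against SAL. What these markers contribute to the differences above was not tested further.

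Mki67 was set beside 6 genes over the 18 pups, with permutation tests of 100000 resamples adjusted by Benjamini-Hochberg over the 6 relations. Its log2 CPM followed Top2a (Pearson's r 0.90, permutation p-value 2e-05, which is the smallest these permutations can give, adjusted 0.00012; Spearman's rho 0.94, permutation p-value 2e-05, adjusted 0.00012). Without the 2 pups furthest from the median of Top2a, r was 0.91, and it was 0.92, 0.90 and 0.95 within SAL, PNO and IUO. Mki67 also followed Drd2, the D2 dopamine receptor of striatal neurons (r 0.63, permutation p-value 0.0047, adjusted 0.014; rho 0.71, permutation p-value 0.0014, adjusted 0.0041). That relation was 0.71 without the 2 furthest pups and 0.52, 0.68 and 0.78 within the groups.

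With Dlx2, a transcription factor of neuroblasts, r was 0.49 (permutation p-value 0.041, adjusted 0.081; rho 0.45, permutation p-value 0.065, adjusted 0.13). It was 0.67 without the 2 furthest pups, and 0.56, 0.21 and -0.09 within SAL, PNO and IUO, so that it did not hold within each group. Pdgfra of oligodendrocyte precursors (r 0.36, permutation p-value 0.15, adjusted 0.22; rho 0.22, permutation p-value 0.38, adjusted 0.57), Cx3cr1 of microglia (r 0.22, permutation p-value 0.39, adjusted 0.47; rho 0.16, permutation p-value 0.53, adjusted 0.63) and Cldn5 of endothelium (r -0.07, permutation p-value 0.78, adjusted 0.78; rho 0.07, permutation p-value 0.79, adjusted 0.79) did not pass. Without the 2 furthest pups these were 0.09, 0.22 and -0.03. Split by group in the order SAL, PNO, IUO, Pdgfra gave 0.27, 0.68 and -0.01, Cx3cr1 gave 0.43, 0.68 and -0.57, and Cldn5 gave 0.21, -0.44 and 0.50.

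**Figure D5:**
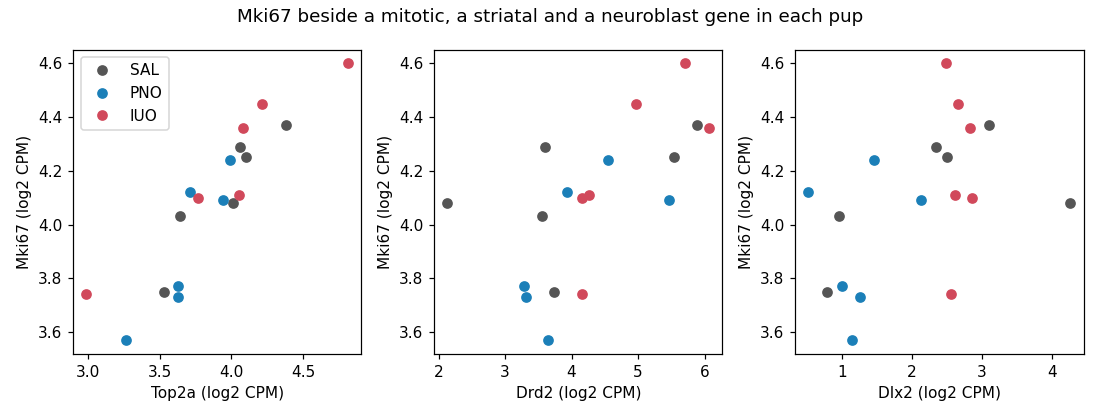
Log2 CPM of Mki67 (y axis) against log2 CPM of Top2a, Drd2 and Dlx2 (x axes) in each of the 18 pups, coloured by group. Points rise together for Top2a (r 0.90) and more loosely for Drd2 (r 0.63), while for Dlx2 (r 0.49) the relation does not hold within IUO (r -0.09).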

How the data were processed

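Each pup's table, as deposited by the authors, lists for every gene an expected count, in which reads that match several genes are shared out, and a TPM value scaled to gene length and to the total of the pup. FPKM values in the same tables were not used. Libraries were made with the TruSeq V2 kit and read as 75-base single reads on 1 flow cell. The aligner, quantifier and genome build are not given in the sources used here. Expected counts summed to 18381819 to 26084780 per pup (median 22726306). No pair of the 45 within-group pairs of pups agreed within sampling noise (chi-square per degree of freedom 10.99 to 182.3). Counting limits cover counting error only.

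Rounded expected counts entered the two-sided quasi-likelihood test of edgeR 4.0.16 (R 4.3.3; TMM, filterByExpr, glmQLFit, glmQLFTest) in 1 model over the 3 groups with 15 residual degrees of freedom, and p-values were adjusted by Benjamini-Hochberg over 15703 genes. A call needed an adjusted p-value under 0.05 and 1.5-fold. Log2 CPM used a prior count of 2. Genes named with full values are the 4 of the list with the smallest p-values in each comparison and 8 representatives of the roles. The fits were tested on simulated data. Alternatives were other size factors, no normalization, DESeq2 1.42.0, limma-voom (limma 3.58.1), other filters, the 12 pups of 2 groups, a replicate block, each pup left out, and marker scores as covariates. Members and lists were chosen with earlier results of these data known. Promoter sequences came from RefSeq (GRCr8). Permutations used scipy 1.17.1 and plots matplotlib 3.10.9.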

Additional observations from a re-analysis of the deposited data

Results flagged for a closer look

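Each of the 35 genes was checked in each group of 6 pups for a pup far from the others, by Dixon's test at the 95% level on log2 CPM, which makes 105 groups. Chance gives about 1 such pup in 20 groups, and 4 were found, fewer than that rate. Bub1b was lowest in IUO replicate 3, at 0.226, beside 1.273 in the nearest pup. Cenpf was lowest in SAL replicate 4, at 2.286, beside 2.813. Kif11 was lowest in PNO replicate 2, at 1.361, beside 2.136. Tyms was highest in SAL replicate 6, at 3.529, beside 2.702. The first 3 pups were also the lowest of their groups for most mitotic genes, and SAL replicate 6 was not apart in those.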

How the results depend on the processing

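In every setting run, calls among the 35 genes numbered 0 in all 3 comparisons by the rule that includes 1.5-fold. By adjusted p-value alone, Mcm7 between IUO and PNO passed with DESeq2 (log2 fold change 0.38, adjusted p-value 0.0378) and with limma-voom (0.31, adjusted p-value 0.0449), and Mcm6 with limma-voom (0.25, adjusted p-value 0.0482). By that looser rule, 436 of all genes passed with DESeq2 and 2028 with limma-voom, so passing it was common in those settings. Over all genes, calls between IUO and PNO numbered 7 with edgeR, 172 with DESeq2, 703 with limma-voom, 50 with only the 12 pups compared and 30 with the striatal score, and from 0 (without PNO replicate 4, PNO replicate 6 or IUO replicate 3) to 58 (without PNO replicate 5) with single pups left out. Between IUO and SAL they numbered 0 with edgeR, 22 with DESeq2 and 17 with limma-voom. The cause of these differences was not tested.

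Counts at an unadjusted p-value under 0.05 were less stable. Between PNO and SAL the count of 3 was 5 without library size normalization, 1 with limma-voom, 0 with the neuroblast score as a covariate and 0 to 6 with single pups left out. The share of all genes at that p-value was 4.86%, 6.69%, 3.39% and 2.52% to 8.99%, in the same order. Between IUO and SAL the count of 1 was 0 without normalization, 3 with limma-voom, 2 with the striatal score and 1 to 3 with single pups left out. The share of all genes was 6.77%, 17.3%, 7.76% and 5.14% to 8.77%, in the same order. Between IUO and PNO the count of 7 was 10 without normalization, 10 with DESeq2 and 8 with limma-voom, beside 14.4%, 16.4% and 34% of all genes. It was 4 with the striatal score, 0 with the neuroblast score and 4 to 12 with single pups left out. The share of all genes was then 17.3%, 9.85% and 11.4% to 21.4%, in the same order. Both scores were chosen after seeing the data. Between IUO and SAL, the estimate turned to -0.02 for Mki67 and -0.09 for Top2a with the striatal score, and Top2a ranged from -0.10 to 0.25 with single pups left out. Without IUO replicate 1 it was -0.10.

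Deviations of pups with the same replicate number had a mean r of 0.232 (PNO and SAL), -0.027 (IUO and SAL) and 0.063 (IUO and PNO), with 4, 1 and 3 of 6 pairs over 0.1, and 6, 1 and 4 of 12 pups correlated best with their own number. Not every pair was over 0.1 in any comparison, and the labels name no shared animal, so the numbers were not taken as pairs. With a replicate block, counts at an unadjusted p-value under 0.05 were 3, 1 and 6, median log2 fold changes were -0.21, 0.01 and 0.23, and calls stayed at 0. Hells had too few counts to be tested at a CPM minimum of 1, and with only the 12 pups of PNO and SAL or of IUO and PNO, which left 34 genes. Depth limits Hells, Rrm2 and Melk most, and litter and sex, which the labels do not give, could not be modelled.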
